A study of Mus musculus with 58 samples.

Results

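The comparison described here set DNA methylation in the caudate-putamen (CPU), the input structure of the basal ganglia, against that in the globus pallidus (GP), to which the caudate-putamen projects. Its members were all samples whose tissue label named either structure, 11 of the 57 samples of the series, with every CpG on the array. The 6 caudate-putamen samples carried the codes F1, F2, F4, M1, M3 and M4, and M4, which was run on 2 arrays, entered as their mean. The 5 globus pallidus samples carried the codes F1, F2, F4, M3 and M4. All of them came from healthy mice of strain C57BL/6 by the labels, which give no genotype beyond the strain, no treatment and no age, and which do not explain the letters F and M. Nor do they state that each sample of a region is from its own animal, and the p-values below thus rest on a spread between samples that may be technical. The title of the sample GP F4 has a prefix that differs from the other 4 globus pallidus titles, and its tissue label was followed.

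Methylation was read at 382 CpGs, named for 381 genes, with a custom Illumina GoldenGate bead array after bisulphite conversion, a treatment that turns unmethylated cytosine into uracil. The measure is the beta value, which is 0 where none of the signal of a CpG is from the methylated form and 1 where all of it is. A further 42 samples of 9 regions from the same strain shared the estimate of the spread. Among these regions were the granular cell layer (GCL) and the Purkinje cells (PC) of the cerebellum. The frontal cortex samples among the 42 were grouped by a genotype label, wild type (WT), and those of the other regions by tissue. Precision was limited by how few arrays there were. Mean beta over the 382 CpGs was 0.272 ± 0.00965 (SD, n = 6) in the caudate-putamen and 0.272 ± 0.00838 (SD, n = 5) in the globus pallidus, and this difference of 0.000106 lay well inside the spread between samples (two-sided exact permutation test, p = 0.985, smallest possible p 0.00433).

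Cytosine methylation at CpG dinucleotides is copied through cell division by maintenance methyltransferases and differs between cell types, and dense methylation of a promoter usually goes with silencing of its gene. Most neurons of the caudate-putamen are GABAergic projection neurons that carry dopamine, muscarinic, adenosine and metabotropic glutamate receptors. The globus pallidus holds fewer neurons, spread among many myelinated fibres. Its neurons are GABAergic too, so both structures are largely inhibitory in their output.

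The sample GP M3 stood apart from its region. Its best correlated other samples over the 382 CpGs were GCL M4 (Pearson's r 0.994) and PC M3 (0.99), against at most 0.979 with a globus pallidus sample, whereas the other 4 globus pallidus samples correlated with each other at 0.980 to 0.995. Other pallidal samples also matched a sample of another region best, GP F1 BLA F4 of the basolateral amygdala (0.996), and GP F2 and GP M4 samples of the substantia nigra (0.996 and 0.997), but their best correlation within the globus pallidus was 0.986 or more. These correlations describe pairs of arrays over shared CpGs. At 40 CpGs the cerebellar samples (GCL and PC together) differed from 7 regions in a fit that held neither CPU nor GP (limma, adjusted p under 0.05 and a difference in mean beta of at least 0.1), 32 of them lower and 8 higher in the cerebellum. On a scale set at each of these CpGs to 0 at the mean of the 7 regions and 1 at the cerebellar mean, the median position of GP M3 was 0.64. The medians of GP F1, F2, F4 and M4 were 0.0278, 0.0565, 0.146 and -0.192, and those of the 6 caudate-putamen samples lay between -0.209 and 0.124. GP M3 lay past the other 4 globus pallidus samples towards the cerebellar mean at 38 of the 40 CpGs. Results are therefore given with and without GP M3, and its part in them is shown by the difference.

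**Figure D1:**
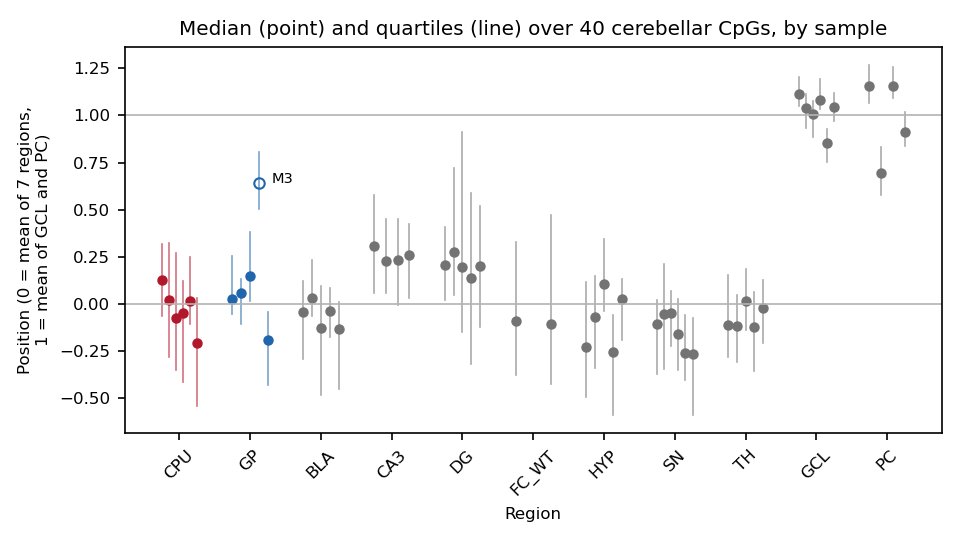
Median position (points) and quartiles (lines) of each sample over the 40 CpGs that separate the cerebellar samples from 7 other regions, with samples grouped by region on the horizontal axis. On the vertical axis 0 is the mean of the 7 regions and 1 the mean of GCL and PC; GP M3 (open circle) sits at 0.64, and the other 4 GP samples sit between -0.192 and 0.146.

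The promoter windows of 3 genes are printed because their genes carried the differences on which the account turns: Grm2 had the largest difference in favour of the caudate-putamen, and Ide and Chrm4 passed the test, lower in the caudate-putamen, in every fit tried. The sequences are from RefSeq (GRCm38.p6), from 250 bases before to 50 bases after the annotated start of the gene, on the gene's strand, with each CG, the dinucleotide that can be methylated, in capitals. CG reads the same on both strands.
Grm2, chr9:106656060-106656359, minus strand: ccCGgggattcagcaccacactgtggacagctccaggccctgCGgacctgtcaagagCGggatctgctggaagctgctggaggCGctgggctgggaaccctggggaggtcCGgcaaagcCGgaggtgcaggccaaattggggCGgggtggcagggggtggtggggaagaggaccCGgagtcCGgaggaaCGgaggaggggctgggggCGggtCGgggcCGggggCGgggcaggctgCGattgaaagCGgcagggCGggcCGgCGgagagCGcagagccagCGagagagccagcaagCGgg
Chrm4, chr2:91921939-91922238, plus strand: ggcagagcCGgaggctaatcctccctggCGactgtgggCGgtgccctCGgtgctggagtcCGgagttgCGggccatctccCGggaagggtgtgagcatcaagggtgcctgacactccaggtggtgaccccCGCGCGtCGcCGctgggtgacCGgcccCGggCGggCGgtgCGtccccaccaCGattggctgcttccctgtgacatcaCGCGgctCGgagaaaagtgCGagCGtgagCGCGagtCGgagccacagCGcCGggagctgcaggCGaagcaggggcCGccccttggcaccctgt
Ide, chr19:37334495-37334794, minus strand: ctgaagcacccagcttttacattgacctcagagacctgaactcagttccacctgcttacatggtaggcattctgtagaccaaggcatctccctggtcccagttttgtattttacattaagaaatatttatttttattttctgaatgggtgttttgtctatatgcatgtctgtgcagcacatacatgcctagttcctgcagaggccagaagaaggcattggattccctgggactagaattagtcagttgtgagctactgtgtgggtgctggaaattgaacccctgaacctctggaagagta
The Grm2 window held 22 CG, and 23.1% of the 32851 promoter windows of the table held as many or more. The Chrm4 window held 30 CG, a number reached by 11.7% of windows, and the Ide window held 0, as did 5.43%. At least 1 CG stood in 94.6% of all windows. The sources used here do not give the genome position of the array's CpGs, so the windows show the CG content near each gene's start and not the measured base. Of the 284 array CpGs whose gene had a window, 17 belonged to the CpGs that passed the test below, with a median of 10 CG for those higher and 17.5 for those lower in the caudate-putamen, against 18 for the CpGs that did not pass. A gene with several windows entered with its richest, such as Spnb4 with 41 CG. The windows of those lower ran from 0 CG at Ide to that number. Over the 284 CpGs the CG count was lower where mean beta was higher (Spearman's rho -0.348). How far the medians above follow the level of methylation was not tested.

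The caudate-putamen and the globus pallidus differed at 23 of 382 CpGs, or 6.02%, at a Benjamini-Hochberg adjusted p under 0.05 (limma on log2(beta / (1 - beta)), 1 fit over 53 samples of 11 regions). Methylation was higher in the caudate-putamen at 10 CpGs, or 2.62% of those tested, and lower at 13, or 3.4%. At an unadjusted p under 0.05 there were 46. The widest differences in mean beta were those at Ide, 0.175 lower in the caudate-putamen, and at Grm2, 0.173 higher, and 16 of the 23 reached 0.1 while none reached 0.2. Without GP M3, 17 CpGs passed (4.45%), 6 higher (1.57%) and 11 lower (2.88%). Of these, 16 passed with GP M3 too, 7 of the 23 passed only with it, 1 (Gabrp) passed only without it, and all 23 kept their sign. In a fit of the 11 samples alone, which has fewer degrees of freedom, 12 of the 23 passed, and Adra2c, Bdkrb2, Chrna10, Col11a2, Grin2a, Npy6r, P2ry5, Rxfp2, Sstr3, Tbxa2r and Tmhs did not. In bulk DNA, a different mixture of cell types and a different methylation level within a cell type cannot be told apart.

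The number of CpGs higher in the caudate-putamen moved more with single samples than the number lower. It was 17 without GP M4, 16 without CPU F1 and 6 without CPU F4, CPU M4 or GP M3, each time with 11 to 13 CpGs lower. With each array centred on its median, 21 CpGs passed, 6 higher and 15 lower. The median difference over all 382 CpGs was 0.04 on the log2(beta / (1 - beta)) scale, and 0.02 without GP M3, with 221 CpGs above 0.

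**Figure D2:**
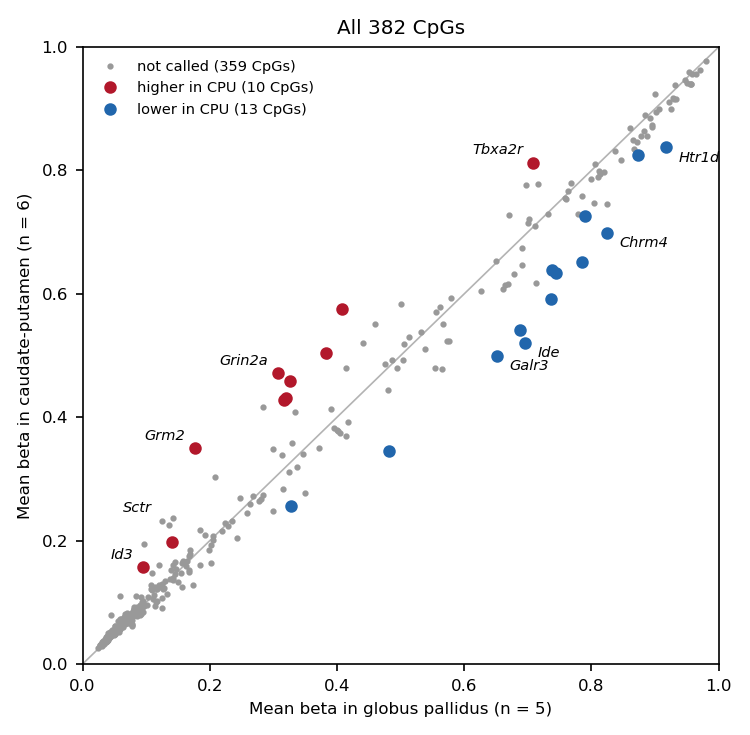
Mean beta value in the caudate-putamen (vertical axis, n = 6) against that in the globus pallidus (horizontal axis, n = 5) for each of 382 CpGs, with the diagonal of equal values. The 10 CpGs higher in the caudate-putamen (red) and the 13 lower (blue) lie mostly at middle levels of methylation, and most of the 359 others (grey) lie near the diagonal at low levels.

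Differences sat mainly at CpGs of middle methylation. Of 242 CpGs with a mean beta under 0.2 over the 53 samples, 3 passed (1.24%), all higher in the caudate-putamen. Of 102 CpGs between 0.2 and 0.8, 17 passed (16.7%), 7 of them higher. Of 38 CpGs over 0.8, 3 passed (7.89%), all lower. None of the 17 X-linked CpGs passed. At 15 of them the mean was higher in M-coded samples, and the fit held no term for the letter, so such differences enter their spread. Of the 40 cerebellar CpGs 9 passed (22.5%), against 14 of the 342 others (4.09%). Without GP M3 these numbers were 7 (17.5%) and 10 (2.92%). The cerebellar CpGs were chosen for a difference in mean beta of at least 0.1, and the others were not. Whether their share differs from the 16.7% at middle methylation was not tested.

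Complete separation of the regions was found at few CpGs. Every caudate-putamen sample lay on the same side of every globus pallidus sample at 12 of 382 CpGs (3.14%). These 12 included 2 of the 10 CpGs higher in the caudate-putamen (Grm2 and Id3) and 9 of the 13 lower, with Hes3, which did not pass the test (adjusted p = 0.105 in limma), as the remaining 1. Without GP M3 there were 15 (3.93%). Whether the directions differ in this respect was not tested.

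**Figure D3:**
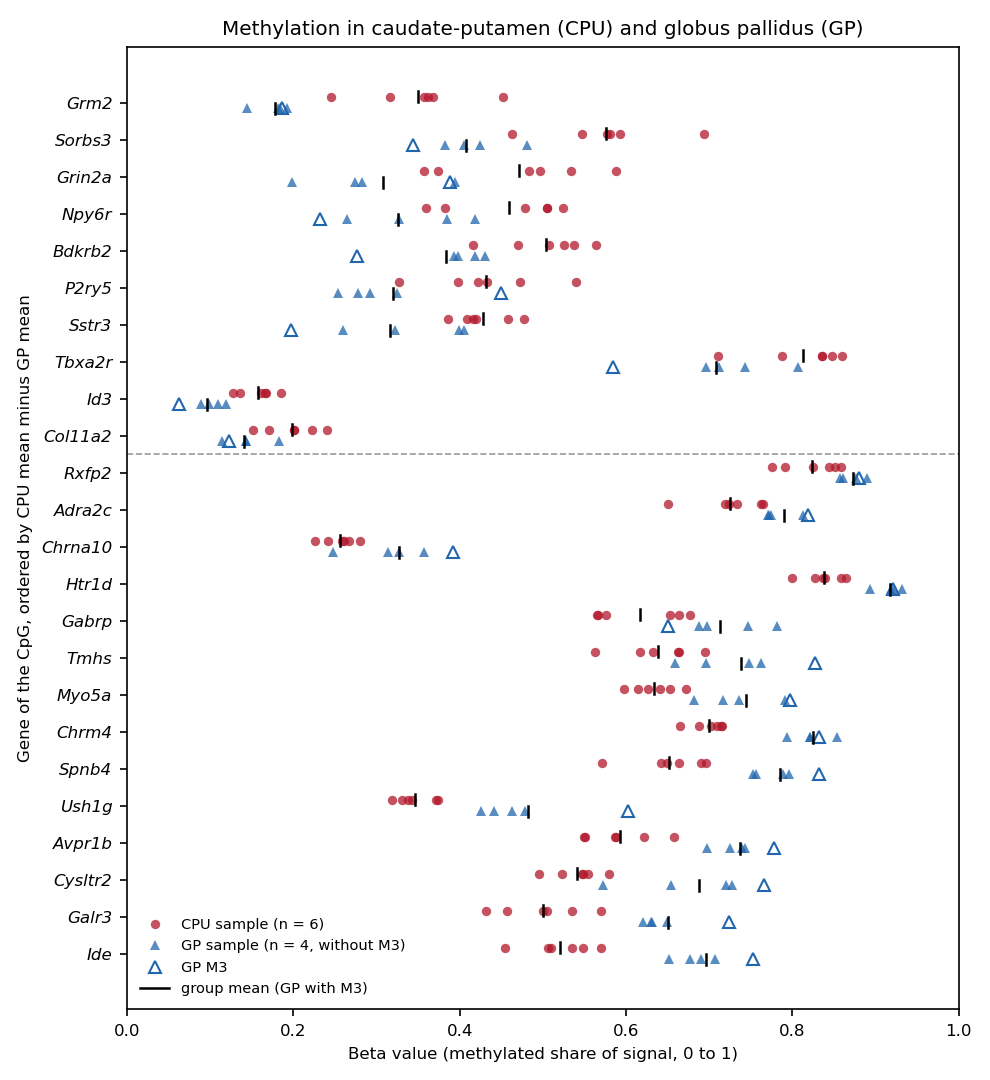
Beta value (horizontal axis, 0 to 1) of every caudate-putamen sample (red circles) and globus pallidus sample (blue triangles, GP M3 open) at the 24 CpGs that passed with or without GP M3, ordered by the difference of the means (bars). Above the dashed line, caudate-putamen values were the higher ones and mostly touch the globus pallidus range; below it most pairs of groups are separate.

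Among the glutamate receptors, Grm2 had the lowest adjusted p of the comparison in the fit over 53 samples. Grm2 encodes metabotropic glutamate receptor 2, an inhibitory receptor that mostly sits on glutamatergic terminals. Its CpG had beta values from 0.246 to 0.452 in the caudate-putamen, with a median of 0.360. In the globus pallidus the values were 0.144 in F1, 0.192 in F2, 0.181 in F4, 0.186 in M3 and 0.184 in M4. Every caudate-putamen sample was above every globus pallidus sample, by at least 0.0536, and GP M3 lay among the other pallidal samples. Means were 0.350 ± 0.0679 (SD, n = 6) and 0.177 ± 0.0190 (SD, n = 5). On the log2(beta / (1 - beta)) scale the difference was 1.31 ± 0.17 (SE, limma, adjusted p = 3.65e-07), and 1.33 ± 0.18 without GP M3 (adjusted p = 1.73e-06). In the limma fit of the 11 samples alone the adjusted p was 0.00151, above the 8.33e-04 of Ide. The adjusted p of Grm2 was 0.0374 in F-coded samples alone and 0.0812 in M-coded samples alone. The other 6 metabotropic receptor CpGs on the array did not pass. Grm3, Grm4, Grm5 and Grm8 had mean beta values between 0.0321 and 0.0747 in both regions, and Grm7, at 0.518 in the caudate-putamen and 0.506 in the globus pallidus, was the only other member of middle methylation.

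Of the 7 NMDA receptor subunits, Grin2a passed, higher in the caudate-putamen. Grin2a encodes GluN2A, a glutamate-binding subunit of mature NMDA receptors. Its beta values ran from 0.357 (F1) over a median of 0.490 to 0.588 (M4) in the caudate-putamen. The pallidal values were 0.199 in F1, 0.274 in F2, 0.282 in F4, 0.388 in M3 and 0.394 in M4. The 2 M-coded pallidal samples reached into the range of the lower caudate-putamen samples. The difference was 1.04 ± 0.26 on the log2 scale (SE, limma, adjusted p = 0.00524), 1.18 ± 0.27 without GP M3 (adjusted p = 0.00434), and 0.84 with an adjusted p of 0.0512 without GP F1. Grin2c, another glutamate-binding subunit and a marker of cerebellar granule cells, had means of 0.50 and 0.384 and did not pass (adjusted p = 0.056). At Grin2c GP M3 was at 0.255 while the other 4 pallidal samples were at 0.395 to 0.442, and without it the adjusted p was 0.368. None of the 11 AMPA, kainate and delta receptor subunits passed (lowest adjusted p 0.694).

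Receptors of other small transmitters that passed had lower methylation in the caudate-putamen. Chrm4 encodes the muscarinic M4 receptor, an inhibitory acetylcholine receptor of direct-pathway projection neurons of the striatum. Its beta values ran from 0.665 over a median of 0.706 to 0.715 in the caudate-putamen. Pallidal samples were at 0.822 in F1, 0.821 in F2, 0.794 in F4, 0.832 in M3 and 0.854 in M4. The groups were separated by 0.0791, more than the whole range of the caudate-putamen samples. Means were 0.699 ± 0.0195 (SD, n = 6) and 0.825 ± 0.0215 (SD, n = 5), a log2 difference of -1.02 ± 0.21 (SE, limma, adjusted p = 6.53e-04), and -1.0 ± 0.22 without GP M3 (adjusted p = 0.00319). None of the other 4 muscarinic receptors passed: Chrm1 was at 0.551 and 0.567, Chrm2 at 0.755 and 0.759 and Chrm5 at 0.856 and 0.878 in caudate-putamen and globus pallidus.

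Htr1d encodes an inhibitory serotonin receptor. Its beta values ran from 0.799 over a median of 0.838 to 0.864 in the caudate-putamen. Values in the globus pallidus were 0.922 in F1, 0.894 in F2, 0.919 in F4, 0.921 in M3 and 0.932 in M4. All pallidal samples were above all caudate-putamen samples. The difference was -1.11 ± 0.20 (SE, limma, adjusted p = 1.56e-04), and -1.10 ± 0.22 without GP M3 (adjusted p = 9.20e-04). The other 9 serotonin receptor CpGs did not pass. Of the 9 adrenergic receptors Adra2c, an inhibitory one, passed. It was at 0.726 ± 0.0416 (SD, n = 6) and 0.790 ± 0.0236 (SD, n = 5), with groups apart by 0.00561 and an adjusted p of 0.0314 with GP M3 and 0.134 without it (limma). Chrna10, a nicotinic subunit, was at 0.256 and 0.327, with GP M4 (0.248) inside the caudate-putamen range, and its adjusted p rose from 0.0178 to 0.134 without GP M3.

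None of the 18 GABA receptor CpGs passed with all samples. Gabrp, the pi subunit of GABA-A receptors, was at 0.617 ± 0.0530 (SD, n = 6) in the caudate-putamen and 0.713 ± 0.0512 (SD, n = 5) in the globus pallidus (limma, adjusted p = 0.0717). GP M3, at 0.651, was the only pallidal sample within the caudate-putamen range of 0.565 to 0.677, and without it the adjusted p was 0.0477. The 5 CpGs of the dopamine system did not pass either. Drd1a and Drd2, the main dopamine receptors of striatal projection neurons, were near the bottom of the scale in both regions: Drd1a had means of 0.0363 and 0.0365 and Drd2 of 0.0945 and 0.0954 in caudate-putamen and globus pallidus. Adora2a, the adenosine receptor of indirect-pathway neurons, was at 0.0552 and 0.0521. Of the 4 striatal markers on the array, Chrm4 therefore passed and Drd1a, Drd2 and Adora2a did not. The 4 histamine receptors (lowest adjusted p 0.0856, at Hrh1), the 4 adenosine receptors and adenylate cyclases (0.667) and the 5 cannabinoid and opioid genes (0.660) held no CpG that passed.

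Peptide and lipid receptors passed in both directions. Avpr1b encodes the vasopressin V1b receptor. Its beta values ran from 0.550 over a median of 0.588 to 0.657 in the caudate-putamen. The pallidal values were 0.698 in F1, 0.739 in F2, 0.725 in F4, 0.778 in M3 and 0.743 in M4. The groups did not overlap, and GP M3 was the highest sample. The difference was -0.95 ± 0.16 (SE, limma, adjusted p = 5.71e-05), and -0.87 ± 0.17 without GP M3 (adjusted p = 8.66e-04). Galr3, a galanin receptor, ran from 0.431 over a median of 0.503 to 0.570 in the caudate-putamen. In the globus pallidus it was at 0.649 in F1, 0.621 in F2, 0.631 in F4, 0.724 in M3 and 0.630 in M4. These groups did not overlap either, and GP M3 stood well above the other pallidal samples. Its log2 difference was -0.91 ± 0.19 (SE, limma, adjusted p = 7.52e-04), and -0.79 ± 0.20 without GP M3 (adjusted p = 0.00859). Cysltr2, a cysteinyl leukotriene receptor, was at 0.541 ± 0.0286 (SD, n = 6) and 0.688 ± 0.0762 (SD, n = 5), and its log2 difference of -0.93 ± 0.20 passed with GP M3 (adjusted p = 0.00109) and without it (0.0141). GP F1, at 0.572, lay inside the caudate-putamen range there.

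Bdkrb2, the bradykinin B2 receptor, was higher in the caudate-putamen. Its values ran from 0.416 over a median of 0.516 to 0.563 there. Pallidal samples were at 0.431 in F1, 0.397 in F2, 0.393 in F4, 0.276 in M3 and 0.419 in M4. CPU F1 was the only caudate-putamen sample within the pallidal range, and GP M3 stood far below the rest. The log2 difference was 0.72 ± 0.17 (SE, limma, adjusted p = 0.00265), and 0.54 ± 0.16 without GP M3 (adjusted p = 0.0438). P2ry5, named Lpar6 in the RefSeq table and encoding a lysophosphatidic acid receptor, was at 0.432 ± 0.0715 (SD, n = 6) against 0.320 ± 0.0771 (SD, n = 5), with an adjusted p of 0.0396. GP M3, at 0.450, was the only pallidal sample within the caudate-putamen range of 0.327 to 0.539, and the adjusted p was 0.0058 without it. The call at P2ry5 was lost without any 1 of 8 of the 11 samples, GP M3 not among them.

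A further 4 receptors passed with GP M3 and not without it. Npy6r, of the neuropeptide Y receptor family, was at 0.459 ± 0.0701 (SD, n = 6) and 0.325 ± 0.0782 (SD, n = 5), and its log2 difference of 0.84 (limma, adjusted p = 0.00525) became 0.68 without GP M3 (adjusted p = 0.0604). Sstr3, a somatostatin receptor, was at 0.428 and 0.317, and Tbxa2r, the thromboxane A2 receptor, at 0.813 and 0.709. Both had an adjusted p of 0.0396 with GP M3. Without it the log2 difference went from 0.73 to 0.51 at Sstr3 (limma, adjusted p = 0.273) and from 0.84 to 0.64 at Tbxa2r (adjusted p = 0.259), which under quantile normalization passed without GP M3 too (0.0191). GP M3 had the lowest pallidal value at all 3, with 0.233 at Npy6r, 0.197 at Sstr3 and 0.585 at Tbxa2r. Rxfp2, the receptor of insulin-like peptide 3, was lower in the caudate-putamen, at 0.824 and 0.873, with an adjusted p of 0.0472 with GP M3 and 0.128 without it, while its log2 difference hardly moved (-0.54 and -0.52). The call was lost without any 1 of 7 of the 11 samples at Rxfp2 and at Tbxa2r and of 6 at Sstr3, and at Rxfp2 it was kept in only 16 of the 42 fits that left out 1 sample of another region. Of the 8 somatostatin and galanin receptors 1 passed in each direction, as among the 36 other neuropeptide receptors and the 14 thrombin and eicosanoid receptors. In the list of 13 genes named as purinergic P2 receptors only P2ry5 passed, higher, which as Lpar6 encodes a lysophosphatidic acid receptor. No other gene of that list passed. Of the 14 class B peptide hormone receptors none passed (limma, lowest adjusted p 0.0986, at Calcr).

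Genes outside the receptor families made up the rest. Ide encodes insulin-degrading enzyme, a protease that cleaves insulin and amyloid beta. Its beta values ran from 0.454 over a median of 0.522 to 0.569 in the caudate-putamen. Values in the globus pallidus were 0.691 in F1, 0.652 in F2, 0.677 in F4, 0.752 in M3 and 0.707 in M4. The groups were apart by 0.0827, and GP M3 was the highest sample. Means were 0.521 ± 0.0402 (SD, n = 6) and 0.696 ± 0.0374 (SD, n = 5), a log2 difference of -1.08 ± 0.19 (SE, limma, adjusted p = 8.54e-05), and -0.98 ± 0.20 without GP M3 (adjusted p = 0.00104). The other 3 genes linked to Alzheimer's disease, Mme, Cdk5 and Cdk5r1, did not pass.

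Spnb4, now Sptbn4, encodes the spectrin of axon initial segments and nodes of Ranvier. Its values ran from 0.571 over a median of 0.656 to 0.696 in the caudate-putamen. The pallidal values were 0.796 in F1, 0.752 in F2, 0.757 in F4, 0.833 in M3 and 0.789 in M4. The groups did not overlap, and the difference was -0.97 ± 0.20 (SE, limma, adjusted p = 6.53e-04), and -0.87 ± 0.21 without GP M3 (adjusted p = 0.0058). Ush1g, a scaffold protein of hair cell bundles, was at 0.346 ± 0.0223 (SD, n = 6) and 0.482 ± 0.0702 (SD, n = 5) without overlap. GP M3, at 0.602, was far above the other pallidal samples at Ush1g, and the adjusted p was 0.0019 with it and 0.0312 without it. Myo5a, an actin-based transport motor, was at 0.634 and 0.744 with groups apart by 0.00993 (adjusted p = 0.00162, and 0.0178 without GP M3). Tmhs, named Lhfpl5 in the RefSeq table and known from hair cell mechanotransduction, was at 0.639 and 0.738 with overlapping groups (adjusted p = 0.00109, and 0.0207 without GP M3). Tmhs did not pass under quantile normalization (adjusted p = 0.110), in the fit of the 11 samples alone (0.112) or with the replicate block in that fit (0.145), and Myo5a missed under quantile normalization (0.0577).

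Sorbs3, which encodes the adhesion adaptor vinexin, was higher in the caudate-putamen. Its values ran from 0.463 (F1) over a median of 0.579 to 0.693 (M4) there. Pallidal samples were at 0.383 in F1, 0.406 in F2, 0.424 in F4, 0.344 in M3 and 0.481 in M4. CPU F1 was the only caudate-putamen sample below the highest pallidal sample. The log2 difference was 0.99 ± 0.25 (SE, limma, adjusted p = 0.00524), and 0.90 ± 0.26 without GP M3 (adjusted p = 0.034). Id3, an inhibitor of basic helix-loop-helix transcription factors, differed at a low level, with values from 0.127 over a median of 0.164 to 0.185 in the caudate-putamen. In the globus pallidus Id3 was at 0.0889 in F1, 0.109 in F2, 0.0983 in F4, 0.0624 in M3 and 0.119 in M4. The groups were apart by 0.00756, and GP M3 was the lowest sample. The log2 difference at Id3 was 0.84 ± 0.14 (SE, limma, adjusted p = 4.18e-05), and 0.68 ± 0.13 without GP M3 (adjusted p = 8.66e-04). Col11a2, a collagen chain, was at 0.198 and 0.141 (adjusted p = 0.0185, and 0.0794 without GP M3).

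**Figure D4:**
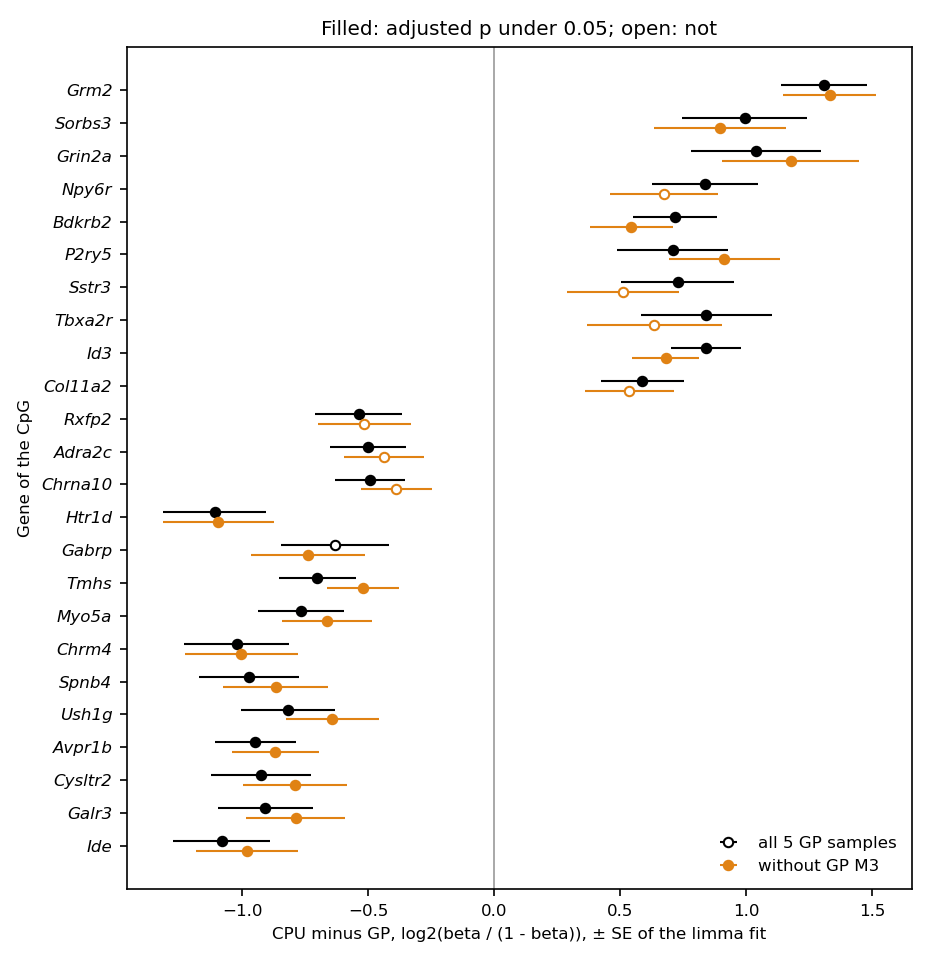
Difference between caudate-putamen and globus pallidus on the log2(beta / (1 - beta)) scale (horizontal axis, points with SE of the limma fit) at the 24 CpGs that passed with all samples (black) or without GP M3 (orange), with open points where the adjusted p was not under 0.05. Every point stays on its side of 0, and the 7 CpGs with an open orange point are the ones that passed only with GP M3.

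Markers of other cell types were few on the array, and 1 of them passed. None of the 9 oligodendrocyte and myelin genes passed, with a lowest adjusted p of 0.772 and a largest difference in mean beta of 0.0287. Among them Mbp was at 0.0554 and 0.0511 and Mag at 0.340 and 0.346 in caudate-putamen and globus pallidus. Of the astrocyte genes, Gfap was at 0.778 ± 0.0455 (SD, n = 6) and 0.716 ± 0.0840 (SD, n = 5), with an adjusted p of 0.505, and Slc1a3 at 0.216 and 0.219. Ifng, the only member of the microglia and immune list on the array, and the 4 general neuron markers did not pass. Neither did Foxp2, the only gene of the pallidal neuron list on the array. Of 5 endothelial and vascular genes Tbxa2r passed, as described, and of 6 cerebellar markers none did (lowest adjusted p 0.056, at Grin2c, with a difference in mean beta of 0.116). Of the 7 ion channels and the pair of movement disorder genes none passed. Altogether 13 of 29 gene lists held a CpG that passed, and the lists were chosen with earlier results of these data known. Medians of the log2 difference, beside 0.04 for all 382 CpGs, were 0.09 over the metabotropic and 0.12 over the NMDA receptors, 0.06 over the GABA receptors, -0.01 over the dopamine system, 0.02 over the serotonin receptors, -0.06 over 6 muscarinic and nicotinic genes, 0.40 over the adenosine receptors and adenylate cyclases and 0.08 over the oligodendrocyte genes. The muscarinic and nicotinic list held Chrm1 to Chrm5 and Chrnb2, and left out Chrna9 and Chrna10, of which Chrna10 passed. The 0.40 rests on 4 CpGs, none of which passed, with median beta values of only 0.067 in the caudate-putamen and 0.048 in the globus pallidus. A list of 4 genes for which the study is known held Sorbs3 and Spnb4, which passed with and without GP M3, Tbxa2r, which did not pass without it, and F2rl2, which did not pass (0.817 and 0.847). It was chosen for results of this study, so its 3 of 4 beside 6.02% over all CpGs is no independent evidence.

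The same caudate-putamen samples took the ends of the range at many CpGs. CPU F1 was the lowest and CPU M4 the highest of the 6 at all 10 CpGs that were higher in the caudate-putamen. Over all 382 CpGs CPU F1 was lowest at 27.5% and CPU M4 highest at 22.0%, and among the 102 of middle methylation the shares were 60.8% and 47.1%. At the 13 CpGs lower in the caudate-putamen CPU F1 was lowest at 7 and CPU F2 highest at 8. GP M3 was the highest pallidal sample at 10 of these 13 and the lowest at 6 of the 10 higher in the caudate-putamen. The 2 arrays of CPU M4 correlated at 0.987, within the range of 0.966 to 0.997 of the other pairs of caudate-putamen arrays. The difference between the regions was not shown to depend on the code letter: of 382 CpGs 0 passed for the interaction of region and letter in limma, where 3 (0.785%) had an unadjusted p under 0.05. With GP M4 left out 3 passed.

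Set beside 9 further regions of the same strain, the caudate-putamen was the more extreme of the pair at most of these CpGs. The CpGs were chosen with the same samples for a difference within the pair, so extreme ranks are partly built in. The share of such ranks over all 382 CpGs is not given here. Its mean was the highest of 11 regions at 7 of the 10 CpGs higher than in the globus pallidus, and among the 2 highest at 9. It was the lowest of 11 at 5 of the 13 CpGs that were lower, and among the 2 lowest at 8. The mean of the globus pallidus was the lowest at none of the 10 and the highest at 1 of the 13 (Galr3), where without GP M3 its mean of 0.633 was below the 0.641 of the substantia nigra. Against the unweighted mean of the 9 regions, the caudate-putamen differed at 38 of 382 CpGs (9.95%), 24 higher and 14 lower, and the globus pallidus at 0 (limma, adjusted p under 0.05), with 54 and 17 at an unadjusted p under 0.05. These contrasts share the 9 regions and, with the main comparison, the samples of the region. With the 40 cerebellar CpGs left out, the caudate-putamen differed at 15 of 342.

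At Grm2 the mean of the 9 regions was 0.171, close to the 0.177 of the globus pallidus. The caudate-putamen was 1.44 above the 9 regions on the log2 scale (limma, adjusted p = 9.11e-13) and the globus pallidus 0.13 (adjusted p = 0.813). The basolateral amygdala, at 0.259, came next to the caudate-putamen at 0.350. At Grin2a the hypothalamus, with a mean of 0.466, was level with the caudate-putamen at 0.472. At Sorbs3 the means of the hypothalamus (0.566), the substantia nigra and the basolateral amygdala all lay within 1 SD of the caudate-putamen mean. At Chrm4 and Ide only the wild-type frontal cortex (n = 2) was lower than the caudate-putamen, with 0.618 at Chrm4 and 0.372 at Ide. At Galr3 the caudate-putamen did not differ from the 9 regions (difference -0.38, adjusted p = 0.0712), and neither did the globus pallidus (0.53, adjusted p = 0.256), while the pair differed from each other.

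**Figure D5:**
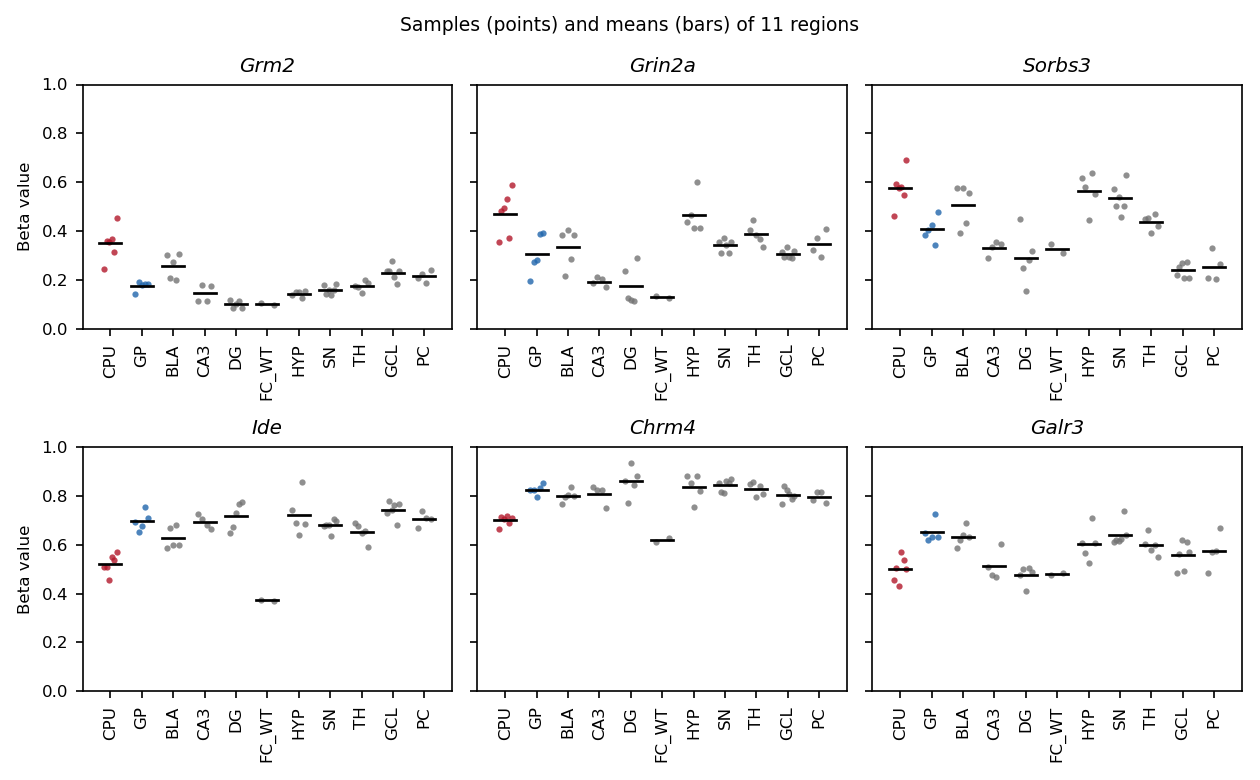
Beta values of single samples (points) and region means (bars) in 11 brain regions at 6 CpGs, with the caudate-putamen in red and the globus pallidus in blue. At Grm2 the caudate-putamen mean of 0.350 is the highest. At Ide and Chrm4 only wild-type frontal cortex (FC_WT) is lower than the caudate-putamen. At Galr3 the globus pallidus has the highest mean when GP M3, itself at 0.724, is included. Without GP M3 its mean of 0.633 is not the highest.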

How the data were processed

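Per the labels and the design text of the series, DNA extracted with phenol from brain samples was bisulphite converted and run on a GoldenGate methylation array of custom content. The authors deposited beta values, which are fractions between 0 and 1, for 382 CpGs and 58 arrays, and these were used as they stand. How the arrays were scanned, corrected and normalized, the genome build, and the meaning of the number in each CpG name: none of these is given in the sources used here. RefSeq (GRCm38.p6) lists 362 of the gene names as current symbols and 20 as synonyms.

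Samples were grouped by tissue label, and frontal cortex samples by their genotype label, WT or 3TG. The fit used 53 samples of 11 C57BL/6 regions: CPU 6, GP 5, basolateral amygdala 5, CA3 4, dentate gyrus 5, frontal cortex 2, granular cell layer 6, hypothalamus 5, Purkinje cells 4, substantia nigra 6 and thalamus 5. The 4 samples labelled 3TG were not used here. The test was limma 3.58.1 (R 4.3.3) with eBayes on log2(beta / (1 - beta)), after setting beta below 0.01 or above 0.99 to these limits. P-values were adjusted by Benjamini-Hochberg over 382 CpGs, and a CpG passed at an adjusted p under 0.05. The script was tested on simulated arrays. Mean beta per sample was compared by exact permutation in Python 3.11.15 with scipy 1.17.1. No value was imputed and no sample dropped, except where stated.

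Named CpGs were those that passed with or without GP M3, the 5 widest that did not, up to 4 per gene list and the 10 at which GP M3 lay farthest from the other pallidal samples. Some CpGs that this rule names are not reported here. The members and lists were chosen with earlier results of these data known. Alternatives tried were other transformations, limits, normalizations and filters, fits of the 2 regions alone, the code or its letter in the model, each letter alone, either CPU M4 array, leaving out samples, regions or cerebellar CpGs, and minimum differences.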

Additional observations from a re-analysis of the deposited data

Results flagged for a closer look

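Single samples that lay far from the rest of their group were looked for at the named CpGs, in mean beta per sample and in the position between other regions and the cerebellum, by the gap to the nearest sample over the range of the group (Dixon's ratio). Of 210 groups tested 21 held such a sample, and chance gives about 1 in 20. No cause was tested.

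In the globus pallidus, GP M3 stood apart at 4 CpGs: at Galr3 with 0.724, above the others, and below them at Bdkrb2 with 0.276, Grin2c with 0.255 and Sgce with 0.568. At Galr3 the other 4 samples lay between 0.621 and 0.649, and at Bdkrb2 between 0.393 and 0.431. GP F1 was low at Grm2 with 0.144 and at Sstr5 with 0.434, where the other pallidal samples were at 0.680 to 0.748. GP F2 was high at Sctr with 0.284, Gabbr2 with 0.0909, Adcy9 with 0.228 and Adora2b with 0.0624.

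In the caudate-putamen, CPU F1 stood apart at 7 CpGs, all of receptors of small transmitters. Of the CpGs only the named ones were searched, and the share of such receptors among them is not given. CPU F1 was high at Drd5 with 0.143, Drd1a with 0.0452, Hrh2 with 0.117, Adora2a with 0.0718 and Adora1 with 0.0415. It was low at Drd3 with 0.923 and Chrm5 with 0.799. Over the whole array it had the highest median beta of the caudate-putamen samples, 0.125 against 0.0977 to 0.116. Its first quartile was also the highest (0.0711 against 0.0512 to 0.0619), and its mean the lowest (0.260 against 0.268 to 0.288). Whether the 7 CpGs follow from this was not tested. CPU F4 was low at Chrm1 with 0.496 and high at Slc1a3 with 0.230 and Mme with 0.202, and CPU M4 was high at Oprk1 with 0.124. None of these 11 CpGs passed the test between the regions.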

How the results depend on the processing

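All 23 CpGs kept their sign with all samples and without GP M3, and no CpG that passed changed direction in any setting tried. Chrm4, Htr1d and Ide passed in every fit, though Htr1d misses a minimum difference of 0.1 and all CpGs miss 0.2, and 14 of the 23 CpGs passed without each caudate-putamen or globus pallidus sample in turn. The number of CpGs that passed was 17 to 29 without 1 of these 11 samples and 22 to 26 without 1 sample of another region. It fell from 23 to 12 in a fit of the 11 samples alone (15 without GP M3, and 14 with the code letter as a covariate), to 6 in F-coded and 5 in M-coded samples alone, and to 0 at a minimum difference of 0.2. Among settings chosen after seeing the data it was 15 without GP M3 with arrays centred on the median, 12 with the 5 codes found in both regions, and 13 of 342 without the cerebellar CpGs. Fits with fewer samples have fewer degrees of freedom, and the cause of the other changes was not tested.

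In the fit of the 11 samples alone 18 CpGs passed with the code as a replicate block (8 higher, 10 lower), against 12 without it, also where only the 5 shared codes entered. With a random replicate block over all 53 samples 22 passed. The deviations of same-coded samples from their region means correlated at -0.248 to 0.602, over 0.1 in 4 of 5 pairs, and 2 of 5 pallidal samples correlated best with their own code. These correlations include the X-linked CpGs and cannot decide whether a code names 1 animal. The main fit left the code out. The deviations did follow the letter, with a median correlation of 0.415 between samples of the same letter and -0.362 between letters, the highest of these being -0.115. The numbers for the caudate-putamen against 9 regions were 31 to 42 without 1 sample, and 15 without the cerebellar CpGs. For the globus pallidus against 9 regions they were 0 to 1 without 1 sample, and 5 without GP M3 under quantile normalization. For the interaction of region and letter they were 0 to 3. The difference in mean beta per sample lay between -0.00313 and 0.00352 without 1 sample.

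The calls at Adra2c, Chrna10, Col11a2, P2ry5, Rxfp2, Sstr3 and Tbxa2r were lost without 3 to 8 single samples of the pair of regions.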

Other observations

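The widest differences that did not pass were all higher in the caudate-putamen. Sstr1, a somatostatin receptor, was at 0.417 ± 0.0548 (SD, n = 6) and 0.283 ± 0.0828 (SD, n = 5), with an adjusted p of 0.056 in limma, and 0.353 without GP M3, the lowest pallidal sample at 0.159. Calcr, the calcitonin receptor, was at 0.304 and 0.208 (adjusted p = 0.0986). Sctr, the secretin receptor, and Kiss1r, the kisspeptin receptor, varied more within the caudate-putamen than between the regions: Sctr ran from 0.0507 in CPU F2 to 0.487 in CPU F4, and Kiss1r from 0.0732 in CPU M3 to 0.452 in CPU F4. Without GP M3, Ednrb, the endothelin B receptor, separated the regions as well, at 0.0955 in GP M3 but 0.176 to 0.213 in the other pallidal samples and 0.10 to 0.155 in the caudate-putamen, with an adjusted p of 0.0794.

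Of the 17 X-linked CpGs, 15 had a higher mean in the M-coded than in the F-coded samples of the 2 regions. At Gabrq, a GABA-A receptor subunit, the pallidal samples were at 0.211 in F1, 0.239 in F2, 0.130 in F4, 0.759 in M3 and 0.735 in M4. At Gabre, another subunit, they were at 0.0517, 0.0551, 0.0378, 0.379 and 0.323 in the same order. The F-coded and M-coded samples did not overlap at either. The labels do not say what the letters mean. Of the 10 CpGs at which GP M3 lay farthest from the mean of the other pallidal samples, 7 were X-linked, and GP M4 was the only other M-coded pallidal sample. The remaining 3 were the autosomal Cacna1d, Pthr1 and Mtnr1b. At Cacna1d, a calcium channel subunit, GP M3 was at 0.491, between the 0.716 to 0.816 of the other pallidal samples and the means of 0.320 in the granular cell layer and 0.376 in Purkinje cells.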
